A study of Mus musculus with 10 samples.

Results

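The genes described here are 7 of the 54532 in the count table: the sphingosine-1-phosphate receptors S1pr1, S1pr2, S1pr3 and S1pr4, the activation antigen Cd69, the oxysterol receptor Gpr183 and the transcription factor Klf2. They were chosen by symbol, with earlier results of these data known, as genes that decide whether a lymphocyte stays in or leaves a lymphoid organ. Each symbol matched 1 gene of the table, and all 7 passed the filter on low counts. Their levels were compared between fibrosis and control libraries.

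Lymphocytes leave spleen, lymph nodes and thymus along a gradient of sphingosine-1-phosphate (S1P), a lipid that is high in blood and lymph and low inside the tissue. A B cell reads this gradient through S1P receptors, which are G protein-coupled receptors, and S1pr1 is the receptor that carries lymphocytes out of the tissue. The transcription factor Klf2 switches S1pr1 on, the activation antigen Cd69 binds the S1pr1 protein and removes it from the cell surface, and Gpr183 (also called EBI2) draws B cells by oxysterols to the edge of the follicle and away from its centre.

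The labels describe splenic B cells from fibrotic mice that had received carbon tetrachloride (CCl4, a liver toxin) by intraperitoneal injection for 4 weeks, and from wildtype mice as the control group, with 5 libraries in each. They give no strain, sex, age, vehicle or method of B cell isolation, and they do not state whether each library came from a separate animal, so each p-value reflects the spread among these libraries alone. RNA was selected by poly-T beads and sequenced in bulk, and the table held between 13439100 and 17069393 counts per fibrosis library and between 15912080 and 17954551 counts per control library. All 12 B cell markers were detected in both groups, with summed levels of 7896 to 11633 CPM (counts scaled by library size and TMM factor) in fibrosis and 7981 to 9156 CPM in control libraries. Fibrosis libraries 4 and 5 stood apart: their B cell marker sums were 7896 and 8213 CPM, against 10670 to 11633 CPM in fibrosis libraries 1 to 3, and their platelet marker sums were the highest of all 10 libraries. Erythroid marker sums were 951 to 7752 CPM in fibrosis and 3712 to 6064 CPM in control libraries. Of the 12 erythroid markers, 7 fell, against 17.2% of all genes tested. In bulk RNA, fewer cells of a type and less RNA per cell cannot be told apart.

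All 7 members had higher expression in fibrosis than in control libraries (edgeR quasi-likelihood test, Benjamini-Hochberg adjusted p under 0.05 over 14283 genes). Of all genes tested, 35.7% were called, 18.6% higher and 17.2% lower, so a large part of the transcriptome moved in the same comparison. Cd69 had the largest change among the members, at 2.21-fold, and S1pr2 (1.65-fold) and Gpr183 (1.52-fold) followed. S1pr4 was 1.40-fold, S1pr3 1.38-fold, S1pr1 1.32-fold and Klf2 1.28-fold of the control level. The median log2 fold change was 0.49 over the members and 0.05 over all genes tested. Because the members were chosen with earlier results of these data known, their count and median are a description only. For Cd69, Gpr183 and S1pr4, every fibrosis library was above every control library, a pattern found in 11.4% of all genes tested. The same 7 members were called higher without fibrosis libraries 4 and 5, where 18.4% of the genes tested were called higher and 18.8% lower. When libraries were scaled to the summed counts of the B cell markers, 3 of the 7 members were called higher (Cd69, Gpr183 and S1pr4), against 5.13% of all genes called higher and 24.1% called lower. With the erythroid marker score of each library as a covariate, 2 of the 7 were called higher (Cd69 and Gpr183), and 2297 genes were called in either direction.

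**Figure D1:**
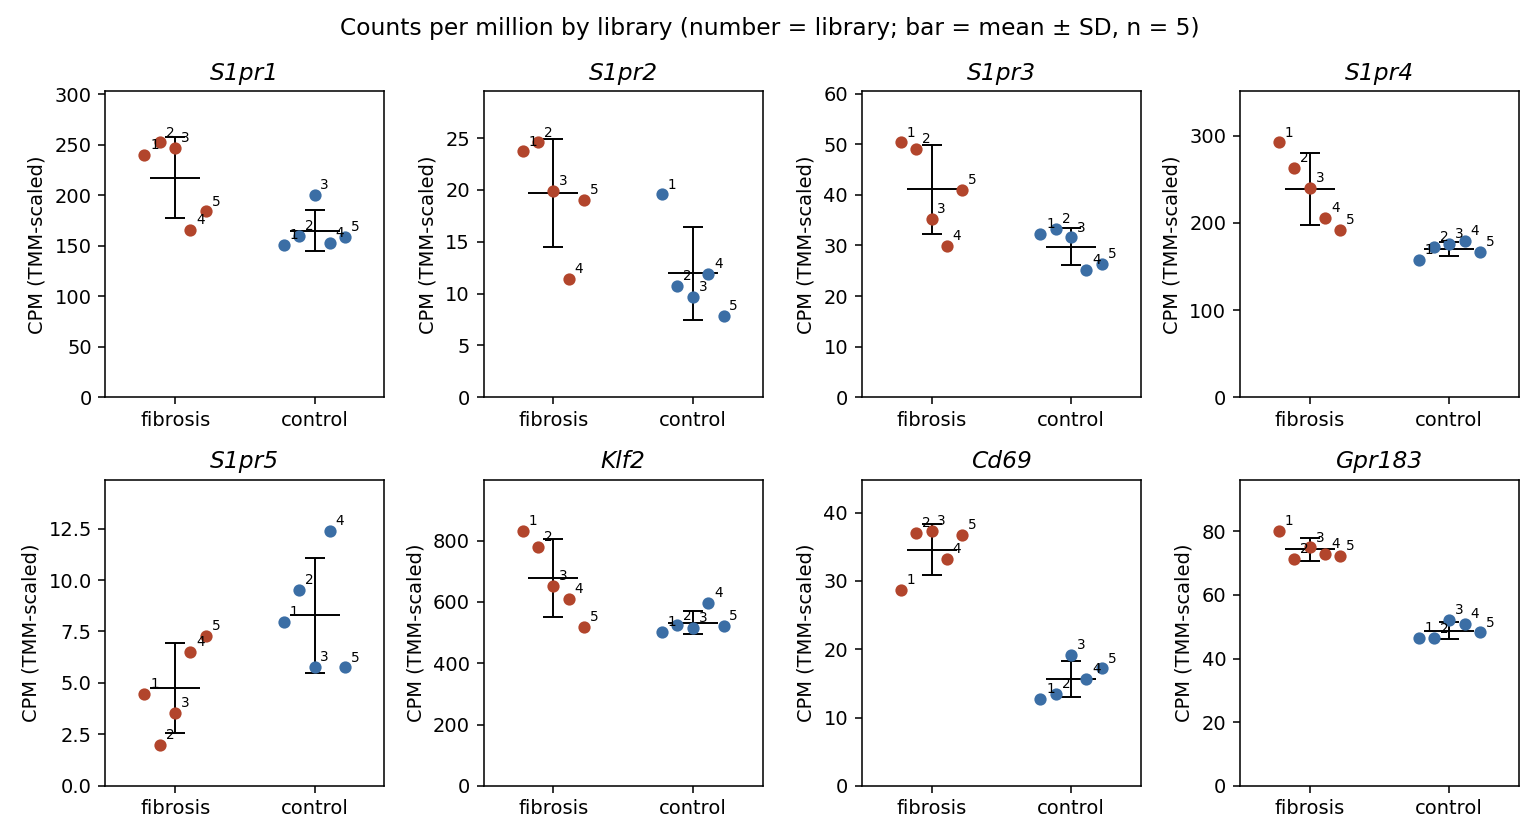
Expression of the 7 members and of S1pr5 in each library, in CPM (after TMM scaling) on the vertical axis, with fibrosis libraries on the left and control libraries on the right of each panel and bars for the mean and SD of 5 libraries. The fibrosis and control points do not overlap for Cd69, Gpr183 and S1pr4, and they overlap for the other genes.

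**Figure D2:**
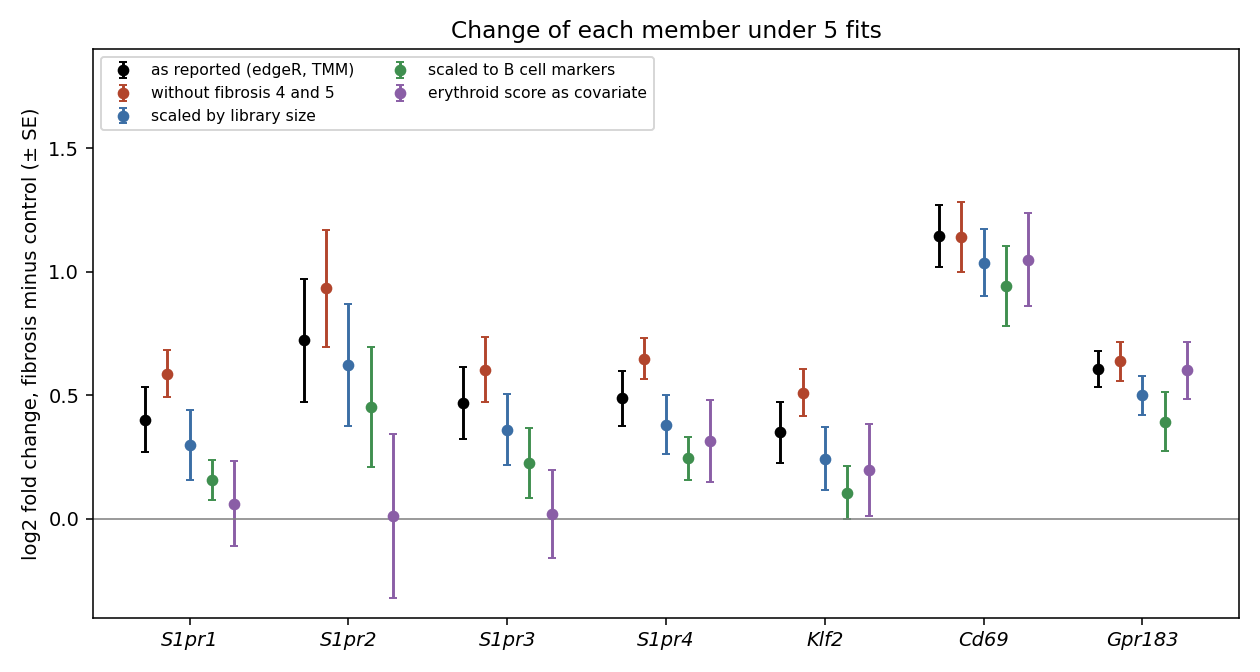
Log2 fold change of each member, fibrosis minus control, on the vertical axis under 5 fits (as reported, without fibrosis libraries 4 and 5, scaled by library size, scaled to B cell markers, and with the erythroid score as a covariate), with bars for the standard error. Cd69 and Gpr183 stay well above 0 in all 5 fits, while S1pr1, S1pr2 and S1pr3 come near 0 with the erythroid covariate.

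S1pr1 (GRCm38 chromosome 3, 115710433 to 115715072, minus strand, 2 exons) is the receptor for exit into blood and lymph. Its levels in fibrosis libraries 1 to 5 were 239.7, 252.5, 247, 166 and 184 CPM, against 151, 160.0, 201, 153 and 159 CPM in control libraries 1 to 5. Fibrosis libraries 1 to 3 were above every control library, while fibrosis libraries 4 and 5 were within the control range. S1pr1 averaged 218 ± 40.0 CPM in fibrosis and 165 ± 20.3 CPM in control libraries (SD, n = 5 each), a log2 fold change of 0.40 ± 0.13 (SE, adjusted p = 0.0280). The call was lost on leaving out any one of fibrosis libraries 1, 2 or 3 or control libraries 1, 2, 4 or 5, with log2 fold changes of 0.34 to 0.39 and adjusted p of 0.0557 to 0.0851. Scaled to the B cell markers, the log2 fold change was 0.16, with adjusted p = 0.167, and adjusted p over all 22 alternatives ran from 0.000520 to 0.832. B cell marker levels moved with S1pr1 over the libraries, being high in fibrosis libraries 1 to 3 (mean log2 difference from control of 0.37, 0.54 and 0.51) and near the control mean in fibrosis libraries 4 and 5 (−0.06 and 0.09). Their part in the result was not tested.

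S1pr4 (chromosome 10, 81497747 to 81500132, minus strand, 1 exon) is an S1P receptor found mainly on lymphocytes and other blood cells. It reached 292, 263, 239.9, 205 and 192 CPM in fibrosis libraries 1 to 5, against 157, 172, 176, 179 and 167 CPM in control libraries 1 to 5. The lowest fibrosis library was above the highest control library, and fibrosis libraries 4 and 5 were again the lowest of their group. The means were 239 ± 41.1 CPM in fibrosis and 170.1 ± 8.51 CPM in control libraries (SD, n = 5 each), and the log2 fold change was 0.49 ± 0.11 (SE, adjusted p = 0.00440). Each fit that left out 1 library kept the call (0.40 to 0.56). Scaled to the B cell markers the log2 fold change was 0.25 and only just called (adjusted p = 0.0497). With the erythroid marker score of each library as a covariate the log2 fold change was 0.31 and adjusted p was 0.209, the highest of a range that began at 0.000104.

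S1pr3 (chromosome 13, 51408639 to 51422797, plus strand, 2 exons) is a receptor that marginal zone B cells carry together with S1pr1 to hold their place at the edge of the white pulp. It had 50.3, 49.1, 35.3, 29.8 and 41.0 CPM in fibrosis libraries 1 to 5, against 32.3, 33.2, 31.6, 25.2 and 26.4 CPM in control libraries 1 to 5. All fibrosis libraries but the fourth were above every control library. It averaged 41.1 ± 8.81 CPM in fibrosis and 29.7 ± 3.67 CPM in control libraries (SD, n = 5 each), with a log2 fold change of 0.47 ± 0.14 (SE, adjusted p = 0.0217). Without fibrosis library 1 or 2 or control library 4 or 5, the log2 fold change was 0.38 to 0.43 and adjusted p was 0.0512 to 0.0615. Scaled to the B cell markers it was 0.22, with adjusted p = 0.263, in a range of 0.00364 to 0.950 over all alternatives. Of the 8 marginal zone B cell markers, 7 rose and none fell, against 18.6% higher and 17.2% lower among all genes. The sum over these markers ran from 1423 to 1868 CPM in fibrosis libraries, against 779 to 906 CPM in control libraries. Among them, Cr2, the complement receptor of marginal zone and follicular B cells, averaged 473 CPM in fibrosis and 189 CPM in control libraries. In fibrosis library 4, the marginal zone marker mean was 0.72 above control on the log2 scale and S1pr3 was 0.01 above it. Their part in the S1pr3 result was not tested.

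S1pr2 (chromosome 9, 20962361 to 20976781, minus strand, 2 exons) opposes migration and keeps germinal centre B cells inside the follicle. The levels were 23.7, 24.6, 19.9, 11.4 and 19.0 CPM in fibrosis libraries 1 to 5, against 19.6, 10.7, 9.68, 11.9 and 7.81 CPM in control libraries 1 to 5. Fibrosis library 4 was inside the control range and control library 1 was inside the fibrosis range. Averages of 19.7 ± 5.22 CPM in fibrosis and 11.9 ± 4.52 CPM in control libraries (SD, n = 5 each) gave a log2 fold change of 0.72 ± 0.25 (SE, adjusted p = 0.0383). The call was lost on leaving out any one of fibrosis libraries 1, 2, 3 or 5 or control libraries 2, 3, 4 or 5 (log2 fold change 0.60 to 0.74, adjusted p 0.0572 to 0.0898). Scaled to the B cell markers the log2 fold change was 0.45, with adjusted p = 0.185, in a range of 0.000186 to 0.982 over all alternatives. Of the 8 germinal centre markers, which include S1pr2, 5 rose and 1 fell, against 18.6% higher and 17.2% lower among all genes. The proliferation gene Mki67, which cycling cells of any type express, fell to 134 CPM in fibrosis, against 290.5 CPM in control libraries, while Gcsam, a germinal centre B cell signalling protein, averaged 20.3 CPM in fibrosis and 6.77 CPM in control libraries.

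S1pr5 (chromosome 9, 21242912 to 21248443, minus strand) is the one S1P receptor outside the 7 members and is best known from natural killer (NK) cells. It had 4.46, 1.97, 3.53, 6.50 and 7.29 CPM in fibrosis libraries 1 to 5, against 7.98, 9.52, 5.80, 12.4 and 5.75 CPM in control libraries 1 to 5. Fibrosis libraries 1 to 3 were below every control library, and fibrosis libraries 4 and 5 were within the control range. The log2 fold change of −0.81 ± 0.32 (SE) had an adjusted p of 0.0665 and was not called. It passed the threshold without fibrosis library 4 (−0.95, adjusted p = 0.04999) or 5 (−1.02, adjusted p = 0.0292), and without both (−1.31, adjusted p = 0.00761), in a range of 0.000102 to 0.754 over all alternatives. Of 9 NK cell markers, 4 rose, 5 were not called and none fell, against 18.6% higher and 17.2% lower among all genes. Their summed levels were 85.7 to 180.4 CPM in fibrosis and 75.7 to 128 CPM in control libraries. Without fibrosis libraries 4 and 5, 3 rose and 1 fell (Gzma, −0.89, adjusted p = 0.0213), against 18.4% higher and 18.8% lower among all genes. The part of NK cells in the S1pr5 values was not tested.

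Levels of different genes were compared per length, in the deposited FPKM, a level scaled for gene length and depth. In fibrosis libraries, the order from highest to lowest was Klf2 (363 ± 77.5 FPKM), S1pr4 (98.9 ± 19.7), S1pr1 (70.6 ± 14.2), Gpr183 (25.4 ± 1.85), S1pr3 (9.09 ± 2.09), Cd69 (5.23 ± 0.48), S1pr2 (2.44 ± 0.68) and S1pr5 (1.86 ± 0.81 FPKM; SD, n = 5). In control libraries, Klf2 (288 ± 20.6 FPKM), S1pr4 (71.2 ± 3.35), S1pr1 (54.0 ± 6.21), Gpr183 (16.9 ± 0.80) and S1pr3 (6.65 ± 0.81) kept that order, and S1pr5 (3.31 ± 1.12), Cd69 (2.40 ± 0.39) and S1pr2 (1.498 ± 0.57 FPKM) came after them. S1pr2 and S1pr5 overlapped in fibrosis libraries, and the lowest 3 genes overlapped in control libraries. S1pr4 was above S1pr1 in 5 of 5 fibrosis libraries, although their ranges overlapped. The length listed for Cd69, 6509 bases, is longer than its principal GENCODE vM21 coding transcript of 1687 bases, and the gene also has 3 retained-intron transcripts. Rescaled to the length of the principal transcript, a choice made after seeing the data, Cd69 was 20.2 ± 1.86 FPKM in fibrosis and 9.26 ± 1.503 FPKM in control libraries. This put it above S1pr3 in both groups. The rescaling kept all reads counted for the gene, so these values are an upper limit for that transcript. The order of Cd69 and S1pr3 thus depends on the length used.

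The shares of S1pr1, S1pr2, S1pr3 and S1pr4 among S1P receptor transcripts were close in both groups. The small share of S1pr5 was lower on average in fibrosis, at 0.38 to 1.88% against 1.55 to 3.61% in control libraries. S1pr4 gave 54.0 ± 2.47% of the summed FPKM of S1pr1 to S1pr5 in fibrosis and 52.1 ± 2.09% in control libraries (SD, n = 5 each). S1pr1 gave 38.6 ± 2.51% in fibrosis and 39.4 ± 2.74% in control libraries. S1pr3 gave 4.98 ± 0.73% in fibrosis and 4.87 ± 0.64% in control libraries, S1pr2 gave 1.32 ± 0.23% in fibrosis and 1.11 ± 0.47% in control libraries, and S1pr5 gave 1.11 ± 0.66% in fibrosis and 2.43 ± 0.83% in control libraries. The within-library log2 ratio of S1pr4 to S1pr1 was 0.49 ± 0.16 in fibrosis and 0.41 ± 0.15 in control libraries (SD, n = 5 each), a difference of 0.08 ± 0.10 (SE, exact two-sided permutation test, p = 0.460, adjusted over 4 ratios 0.683). The ratio of S1pr3 to S1pr1 was −2.96 ± 0.25 in fibrosis and −3.02 ± 0.21 in control libraries, a difference of 0.06 ± 0.15 (SE, exact permutation p = 0.675, adjusted 0.683).

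Cd69 (chromosome 6, 129267325 to 129275436, minus strand, 5 exons) is a C-type lectin-like surface protein induced within hours of lymphocyte activation. It had 28.7, 37.0, 37.3, 33.2 and 36.8 CPM in fibrosis libraries 1 to 5, against 12.7, 13.5, 19.1, 15.7 and 17.2 CPM in control libraries 1 to 5. The groups were well apart, and fibrosis library 1 was the lowest of its group, below fibrosis libraries 4 and 5. Cd69 averaged 34.6 ± 3.69 CPM in fibrosis and 15.6 ± 2.64 CPM in control libraries (SD, n = 5 each), a log2 fold change of 1.15 ± 0.13 (SE, adjusted p = 3.87e-05). It was called higher in all 22 alternatives, with log2 fold changes of 0.88 to 1.25 and adjusted p of 2.80e-15 to 0.00641. T cells and NK cells can also express Cd69. Of the T cell markers, 1 of 10 rose (Cd8a) and none fell, against 18.6% higher and 17.2% lower among all genes. Their summed levels were 82.9 to 142 CPM in fibrosis and 75.4 to 101 CPM in control libraries. Most of this sum was Cd8a (38.3 CPM in fibrosis, 21.2 CPM in control libraries) and Lck (47.0 and 41.5 CPM). Cd3e (1.39 on the log2 scale), Cd3g (1.22), Cd3d (1.30) and Cd8b1 (0.51) were higher on average but not called. Cd4 (−0.05) and Cd5 (−0.19) were lower on average and also not called. Of the NK cell markers, 4 of 9 rose and none fell, against the same shares of 18.6% higher and 17.2% lower. Their summed levels were 85.7 to 180.4 CPM in fibrosis and 75.7 to 128 CPM in control libraries. Among the fibrosis libraries, the T cell marker mean relative to control ran from −0.65 in library 3 to 1.49 in library 4 on the log2 scale, and Cd69 was at 37.3 and 33.2 CPM in those libraries. The part of these cells in the Cd69 result was not tested.

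Cd69 rose more than S1pr1, the receptor its protein binds. The log2 ratio of Cd69 to S1pr1 in FPKM was −3.74 ± 0.32 in fibrosis and −4.50 ± 0.16 in control libraries (SD, n = 5 each). Every fibrosis library (−4.16 to −3.41) was above every control library (−4.66 to −4.31). The difference of 0.77 ± 0.16 (SE), or 1.70-fold, had an exact two-sided permutation p of 0.00794, the smallest that 5 against 5 libraries can give, and 0.0317 adjusted over the 4 ratios. Without fibrosis libraries 4 and 5 the difference was 0.55, with an adjusted exact p of 0.143. That is the smallest value the remaining libraries and 4 ratios allow. With any 1 library left out it was 0.68 to 0.87, and the adjusted exact p was 0.0635, which is the smallest these fewer libraries and 4 ratios allow.

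**Figure D3:**
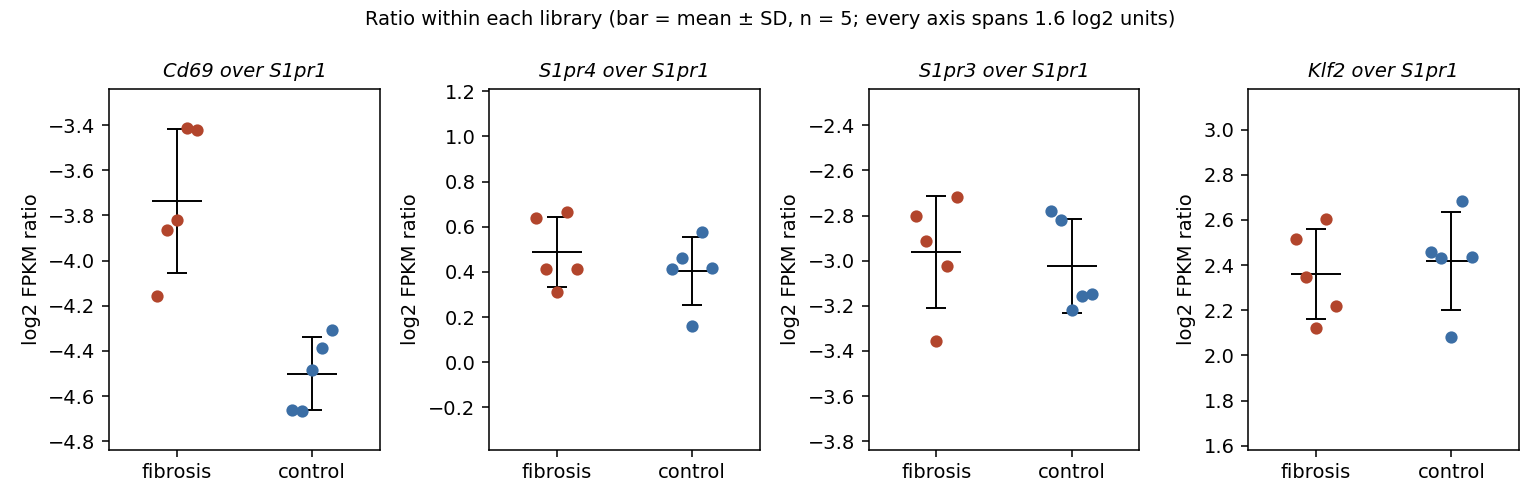
Log2 ratio of FPKM within each library for Cd69, S1pr4, S1pr3 and Klf2 over S1pr1, with fibrosis libraries left of control libraries and bars for the mean and SD of 5 libraries. The Cd69 to S1pr1 ratio separates the groups (−4.16 to −3.41 in fibrosis, −4.66 to −4.31 in control), and the other 3 ratios overlap.

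Gpr183 (chromosome 14, 121952551 to 121965195, minus strand, 2 exons) guides activated B cells and dendritic cells along oxysterols. It had 80.1, 71.3, 74.9, 72.9 and 72.2 CPM in fibrosis libraries 1 to 5, against 46.4, 46.3, 52.0, 50.9 and 48.2 CPM in control libraries 1 to 5. The lowest fibrosis library was well above the highest control library, and libraries of one group differed little. The means were 74.3 ± 3.53 CPM in fibrosis and 48.8 ± 2.59 CPM in control libraries (SD, n = 5 each), and the log2 fold change was 0.61 ± 0.07 (SE, adjusted p = 6.90e-05). It was called higher in all 22 alternatives, with log2 fold changes of 0.39 to 0.64 and adjusted p of 1.86e-11 to 0.0268. The gene lies within the span of Ubac2 on the opposite strand, and Ubac2 rose by 0.40 ± 0.08 on the log2 scale (adjusted p = 0.00218). No source used here states that counting used strand, so reads of both genes cannot be told apart where they overlap. Dendritic cells also express Gpr183, and 5 of 10 dendritic cell markers rose and none fell, against 18.6% higher and 17.2% lower among all genes. Their summed levels were 295 to 374 CPM in fibrosis and 180.2 to 202 CPM in control libraries. The highest dendritic cell marker sum was in fibrosis library 5, where Gpr183 was at 72.2 CPM, within the range of the other fibrosis libraries. The part of these cells in the result was not tested.

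Klf2 (chromosome 8, 72319033 to 72321656, plus strand, 3 exons) is a zinc finger factor of quiescent, circulating lymphocytes and of endothelium. It had 832, 779, 652, 609.9 and 519.8 CPM in fibrosis libraries 1 to 5, against 503, 524, 514, 597 and 522 CPM in control libraries 1 to 5. Fibrosis library 5 was inside the control range and the other 4 were above every control library. Klf2 averaged 679 ± 127 CPM in fibrosis and 532 ± 37.2 CPM in control libraries (SD, n = 5 each), a log2 fold change of 0.35 ± 0.12 (SE, adjusted p = 0.0400). The call was lost on leaving out any one of fibrosis libraries 1, 2 or 3 or control libraries 1, 2, 3 or 5 (log2 fold change 0.27 to 0.35, adjusted p 0.0737 to 0.0941). Scaled to the B cell markers the log2 fold change was 0.11, with adjusted p = 0.498, the highest of a range that began at 0.00114. The log2 ratio of Klf2 to S1pr1 was 2.36 ± 0.20 in fibrosis and 2.42 ± 0.22 in control libraries, a difference of −0.06 ± 0.13 (SE, exact permutation p = 0.683, also after adjustment). Of 6 endothelial and stromal markers tested, 1 rose (Pecam1, 0.43, which leukocytes also express), 1 fell (Plvap, −1.16) and 4 were not called (Kdr 0.54, Pdgfrb −0.48, Cdh5 0.07 and Stab2 0.06 on the log2 scale). These counts are near the shares over all genes (18.6% higher and 17.2% lower). The summed level of the whole list was 239 to 281 CPM in fibrosis libraries, against 199 to 217 CPM in control libraries. Most of this sum was Pecam1, which averaged 225 CPM in fibrosis and 167 CPM in control libraries. The mean log2 level of the list, which weighs each gene equally, was below the control mean in fibrosis libraries 1 to 3. It was above the control mean in fibrosis libraries 4 and 5. The part of endothelial and stromal cells in the Klf2 result was not tested.

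Promoter windows of 4 members are shown because Krueppel-like factors such as Klf2, itself a member, bind short CACCC or GC-rich boxes. The RefSeq promoter table for GRCm38.p6 matched 5 of the 7 members (S1pr2, S1pr3, S1pr4, Gpr183 and Klf2). Each window ran from 250 bases before to 50 bases after the start site of that table, which can differ from the gene positions given above. Capitals mark matches on either strand to CACCC, CCNCNCCC (both for Krueppel-like factors), TGANTCA (AP-1), the NF-kB site or TGTTTAC (FOXO), where N is any base. The windows are Klf2 at chr8:72318812-72319111 (plus strand), S1pr3 at chr13:51408368-51408667 (plus strand), S1pr4 at chr10:81500088-81500387 (minus strand) and Gpr183 at chr14:121965144-121965443 (minus strand), each written 5′ to 3′ along the gene's strand.
Klf2: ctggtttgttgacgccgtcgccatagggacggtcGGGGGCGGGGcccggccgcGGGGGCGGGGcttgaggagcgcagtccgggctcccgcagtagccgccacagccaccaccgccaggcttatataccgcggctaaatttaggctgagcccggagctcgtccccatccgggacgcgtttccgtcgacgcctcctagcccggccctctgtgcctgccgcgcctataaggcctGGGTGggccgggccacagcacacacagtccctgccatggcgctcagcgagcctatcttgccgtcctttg
S1pr3: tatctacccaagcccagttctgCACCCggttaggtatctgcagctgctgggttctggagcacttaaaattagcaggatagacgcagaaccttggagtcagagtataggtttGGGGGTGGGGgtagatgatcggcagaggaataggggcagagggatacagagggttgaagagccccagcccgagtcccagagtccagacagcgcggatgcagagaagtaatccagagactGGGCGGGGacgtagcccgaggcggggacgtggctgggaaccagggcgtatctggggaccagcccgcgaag
S1pr4: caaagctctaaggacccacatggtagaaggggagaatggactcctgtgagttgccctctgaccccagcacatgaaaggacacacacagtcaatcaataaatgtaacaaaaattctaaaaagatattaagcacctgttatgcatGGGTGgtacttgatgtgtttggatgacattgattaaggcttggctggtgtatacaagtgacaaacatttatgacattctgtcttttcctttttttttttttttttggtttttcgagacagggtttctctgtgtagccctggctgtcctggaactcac
Gpr183: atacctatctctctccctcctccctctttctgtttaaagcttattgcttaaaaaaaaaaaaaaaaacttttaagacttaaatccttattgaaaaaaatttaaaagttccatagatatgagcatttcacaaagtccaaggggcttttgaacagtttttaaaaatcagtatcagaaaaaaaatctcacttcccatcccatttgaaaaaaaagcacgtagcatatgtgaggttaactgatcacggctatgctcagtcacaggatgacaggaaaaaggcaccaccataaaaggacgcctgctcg
The Klf2 window held 4 matches to CCNCNCCC and 1 to CACCC; overlapping matches merge, so these lie in 3 stretches. The S1pr3 window held 3 matches to CCNCNCCC and 2 to CACCC, also in 3 stretches, one of which holds a CACCC match and a pair of CCNCNCCC matches that overlap one another. S1pr4 held 1 match to CACCC and Gpr183 held none of the motifs searched. The S1pr2 window (chr9:20976744-20977043, minus strand) held 2 matches to CCNCNCCC and 1 to CACCC, which overlapped one of them. Of 32851 promoters of the same length, 57.5% held CACCC, 49.5% CCNCNCCC, 7.81% TGANTCA, 3.65% TGTTTAC and 1.47% the NF-kB site. A match to CACCC or CCNCNCCC is thus common, and a window with or without one is a description of its letters only.

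The members did not share one pattern over the fibrosis libraries. On the log2 scale relative to the control mean, S1pr1 was 0.55, 0.62, 0.59, 0.01 and 0.17 in fibrosis libraries 1 to 5. Klf2 was 0.65, 0.55, 0.29, 0.20 and −0.03 in the same order, and S1pr4 was 0.78, 0.63, 0.50, 0.27 and 0.18. S1pr1, S1pr3, S1pr4 and Klf2 were thus higher in fibrosis libraries 1 and 2 than in 4 and 5, as the B cell markers were. Cd69 (0.89, 1.26, 1.27, 1.10 and 1.25) and Gpr183 (0.72, 0.55, 0.62, 0.58 and 0.57) had no such fall in fibrosis libraries 4 and 5. After subtracting each group's mean, S1pr4 and Klf2 varied together over the 10 libraries (r = 0.94, and 0.86 over 8 libraries without fibrosis libraries 4 and 5). S1pr1 and S1pr4 had r = 0.75 over 10 libraries and 0.16 over those 8, so this relation rested on fibrosis libraries 4 and 5.

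**Figure D4:**
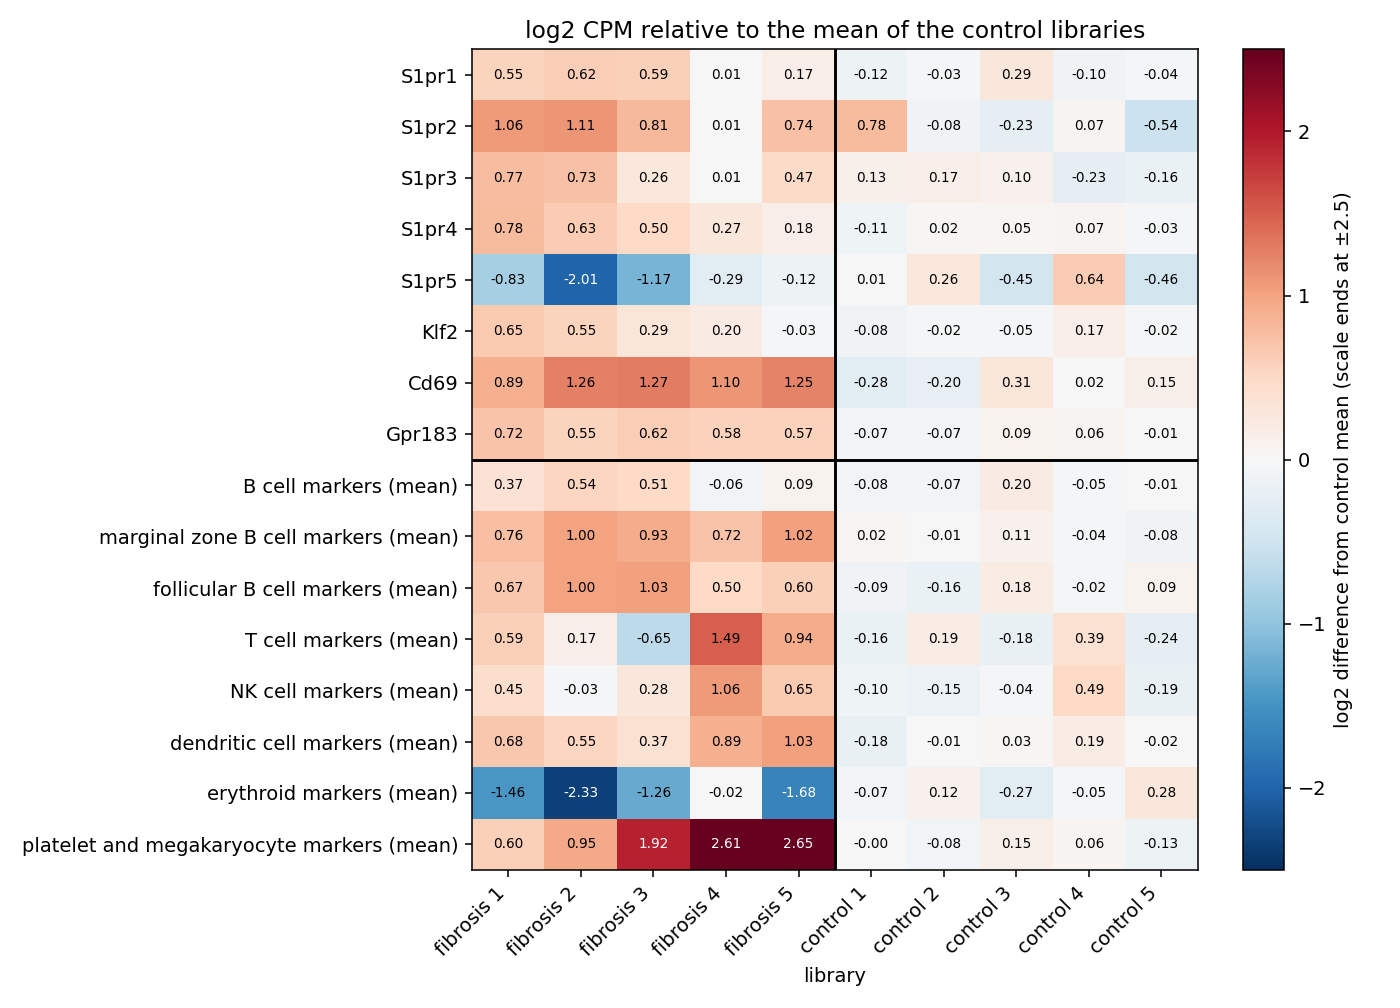
Level of each member, of S1pr5 and of the mean of 8 marker lists (down the page) in each library, as the log2 difference from the control mean, red for higher and blue for lower, with fibrosis libraries 1 to 5 left of control libraries 1 to 5. S1pr1 and the B cell markers are near 0 in fibrosis libraries 4 and 5, where Cd69 is at 1.10 and 1.25.

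The genes most like each member were taken as those with the highest Pearson r of log2 CPM after subtracting group means, over the 10 libraries. For S1pr4 they were Cd79b, a signalling chain of the B cell receptor (r = 0.98), and Grk2, a kinase that desensitises G protein-coupled receptors (0.98). For S1pr1 they were Kif21b (0.98) and Mllt6 (0.98), and for Klf2 they were Fhl3 (0.98) and Dis3l2 (0.98). S1pr2 was closest to Ldhd (0.96) and Phf19 (0.92), S1pr3 to Mlec (0.95) and Rpl7a (0.94), Cd69 to Rbm34 (0.94) and Zfp54 (0.94), and Gpr183 to Esyt3 (0.93) and Cacfd1 (0.91). The libraries differ in depth and cell type marker levels, and all genes of a library share these differences. The r values were between 0.86 and 0.98 over the 8 libraries without fibrosis libraries 4 and 5. Those 8 are among the 10 libraries used to pick the genes, and the genes were picked for the highest r. High values were thus expected from the pick, and they are a description only.

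Genes that make, carry and break down S1P moved in both directions. Of 15 tested, 3 rose and 3 fell, against 18.6% higher and 17.2% lower among all genes, and the median log2 fold change was 0.12. Sphk1, a kinase that makes S1P, fell to 20.8 ± 11.8 CPM in fibrosis, against 77.8 ± 8.49 CPM in control libraries (log2 fold change −1.91 ± 0.33, adjusted p = 0.00125). Mfsd2b, the S1P exporter of red cells and platelets, averaged 43.5 ± 14.1 CPM in fibrosis and 85.5 ± 10.4 CPM in control libraries (−0.98 ± 0.19, adjusted p = 0.00199). Plpp1, a lipid phosphate phosphatase, fell to 10.9 CPM in fibrosis, against 20.6 CPM in control libraries (−0.93 ± 0.14). Acer2, a ceramidase that releases the sphingosine from which S1P is made, averaged 8.73 ± 3.52 CPM in fibrosis and 2.17 ± 0.35 CPM in control libraries, 4.00-fold higher (adjusted p = 0.000191). For these 4 genes, the fibrosis and control libraries did not overlap. Among all genes tested, 11.4% had every fibrosis library above every control library, and 14% had every one below. The 4 genes were named for having the smallest p of their list, a pick that favours such separation. With the erythroid marker score as a covariate, Sphk1 (−1.02, adjusted p = 0.0667), Mfsd2b (−0.38, 0.228) and Plpp1 (−0.74, 0.0523) were not called, while Acer2 was (2.34, 0.00523). That score was 5.69 to 8.01 in fibrosis and 7.75 to 8.30 in control libraries, so it is in part confounded with the groups.

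Of 6 genes for oxysterol enzymes, the ligand side of Gpr183, only Cyp39a1 and Cyp27a1 had enough counts to test. Cyp39a1, a hydroxylase of oxysterols, averaged 13.7 CPM in fibrosis and 8.81 CPM in control libraries (log2 fold change 0.64 ± 0.12, adjusted p = 0.00144). It was not called with B cell marker scaling (0.42, adjusted p = 0.0664) or with the erythroid covariate (0.41, 0.132). Cyp27a1, which makes side-chain oxysterols, averaged 43.4 CPM in fibrosis and 35.3 CPM in control libraries (0.30 ± 0.10, adjusted p = 0.0329). Without any one of fibrosis libraries 2 or 5 or control libraries 1, 2, 3 or 5, Cyp27a1 was not called (0.24 to 0.31, adjusted p 0.0570 to 0.0850). Ch25h, which begins the synthesis of the main Gpr183 ligand, had 5 counts over all fibrosis libraries and 0 over all control libraries, where a count of 0 allows up to 0.0348 CPM.

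Among 22 genes that relay or end the signal of these receptors, 5 rose and 2 fell, counts near the shares over all genes (18.6% higher and 17.2% lower). Without fibrosis libraries 4 and 5 the count was 14 (12 higher, 2 lower), against 18.4% higher and 18.8% lower among all genes. Scaled to the B cell markers the count was 4 (1 higher, 3 lower), against 5.13% higher and 24.1% lower among all genes. Arrb1, an arrestin that desensitises receptors, fell to 142 ± 12.8 CPM in fibrosis, against 286 ± 26.7 CPM in control libraries (log2 fold change −1.01 ± 0.09, adjusted p = 1.55e-05). Rgs1, which shuts off inhibitory G proteins and weakens chemokine responses, averaged 14.8 ± 5.73 CPM in fibrosis and 4.70 ± 0.94 CPM in control libraries, 3.14-fold higher (adjusted p = 0.000361). Gnai3, an inhibitory G protein subunit, was 1.501-fold and the actin regulator Coro1a 1.57-fold of control. The groups did not overlap for these 4 genes, which were named for having the smallest p of their list, a pick that favours such separation. Over all genes tested, every fibrosis library was above every control library in 11.4% and below in 14%. Gnai3 and Coro1a were not called when libraries were scaled to the B cell markers (adjusted p = 0.0548 and 0.0692).

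Of 9 Klf2 regulators and Klf2-dependent homing genes, 3 rose and 1 fell, against 18.6% higher and 17.2% lower among all genes. Without fibrosis libraries 4 and 5, 5 rose and 1 fell, against 18.4% higher and 18.8% lower among all genes. Scaled to the B cell markers, 1 rose and 3 fell, against 5.13% higher and 24.1% lower among all genes. Mef2c, an activator of Klf2 in endothelium, averaged 240.8 CPM in fibrosis and 134 CPM in control libraries (0.85 ± 0.16). Foxo3, a forkhead factor, fell to 93.9 CPM in fibrosis, against 129 CPM in control libraries (−0.46 ± 0.10). With the erythroid covariate, neither Mef2c (0.48, adjusted p = 0.142) nor Foxo3 (−0.49, adjusted p = 0.0528) was called. Mef2a averaged 57.8 CPM in fibrosis and 45.3 CPM in control libraries (0.35 ± 0.11, adjusted p = 0.0274), and it was not called without any one of fibrosis libraries 2, 3 or 5 or control libraries 1, 2, 4 or 5 (0.27 to 0.36, adjusted p 0.0531 to 0.0759). Itgb7, an integrin chain for homing to the gut, averaged 344 CPM in fibrosis and 256 CPM in control libraries (0.43 ± 0.14, adjusted p = 0.0314), and it was not called without any one of fibrosis libraries 1 or 2 or control libraries 1, 2, 3 or 5 (0.31 to 0.43, adjusted p 0.0601 to 0.0818).

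Of 11 other receptors that position B cells, 6 rose and none fell, against 18.6% higher and 17.2% lower among all genes, with a median log2 fold change of 0.54. With libraries scaled to the B cell markers, 5 were called higher and 2 lower (Itgal, −0.35, and Itga4, −0.36, named after their values were seen). Under this scaling 5.13% of all genes were called higher and 24.1% lower. Gpr174, a lysophosphatidylserine receptor, averaged 44.2 CPM in fibrosis and 19.2 CPM in control libraries, 2.30-fold higher. Ccr7, the chemokine receptor that draws cells to the T cell zone, averaged 260.0 CPM in fibrosis and 162 CPM in control libraries, 1.61-fold higher. Gpr132 (0.56 ± 0.09) and Gpr18 (0.54 ± 0.11) also rose on the log2 scale. In each of these 4 genes, every fibrosis library was above every control library, a pattern found in 11.4% of all genes tested. They were named for having the smallest p of their list, a pick that favours such separation. With the erythroid covariate, Gpr174 was called, and Ccr7 (0.44, adjusted p = 0.0760), Gpr132 (0.37, 0.0507) and Gpr18 (0.34, 0.128) were not. Of the 6 follicular B cell markers, 5 rose and none fell beside them, at sums of 2328 to 3514 CPM in fibrosis and 1464 to 1900.0 CPM in control libraries, and their part was not tested.

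Early activation genes, the class to which Cd69 belongs, did not move as one. Of 13 tested besides Cd69, 2 rose and 3 fell, near the shares over all genes (18.6% higher and 17.2% lower), with a median log2 fold change of −0.20. With B cell marker scaling, 1 rose and 7 fell, against 5.13% of all genes called higher and 24.1% called lower. Nr4a3, an orphan nuclear receptor induced by antigen receptor signals, averaged 8.13 ± 1.84 CPM in fibrosis and 3.37 ± 0.67 CPM in control libraries (1.27 ± 0.19, adjusted p = 0.000311). Cd83, a surface protein of activated B cells, averaged 254 CPM in fibrosis and 183 CPM in control libraries (0.47 ± 0.08). Egr1, an immediate early transcription factor, fell to 31.5 CPM in fibrosis, against 51.7 CPM in control libraries (−0.71 ± 0.15), and Nr4a1, the receptor related to Nr4a3, fell to 72.7 CPM in fibrosis, against 95.8 CPM in control libraries (−0.40 ± 0.11). With the erythroid covariate, Cd83 (0.36, adjusted p = 0.0679) and Nr4a1 (−0.37, 0.156) were not called, and Cd83 was not called with B cell marker scaling either (0.26, 0.144).

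**Figure D5:**
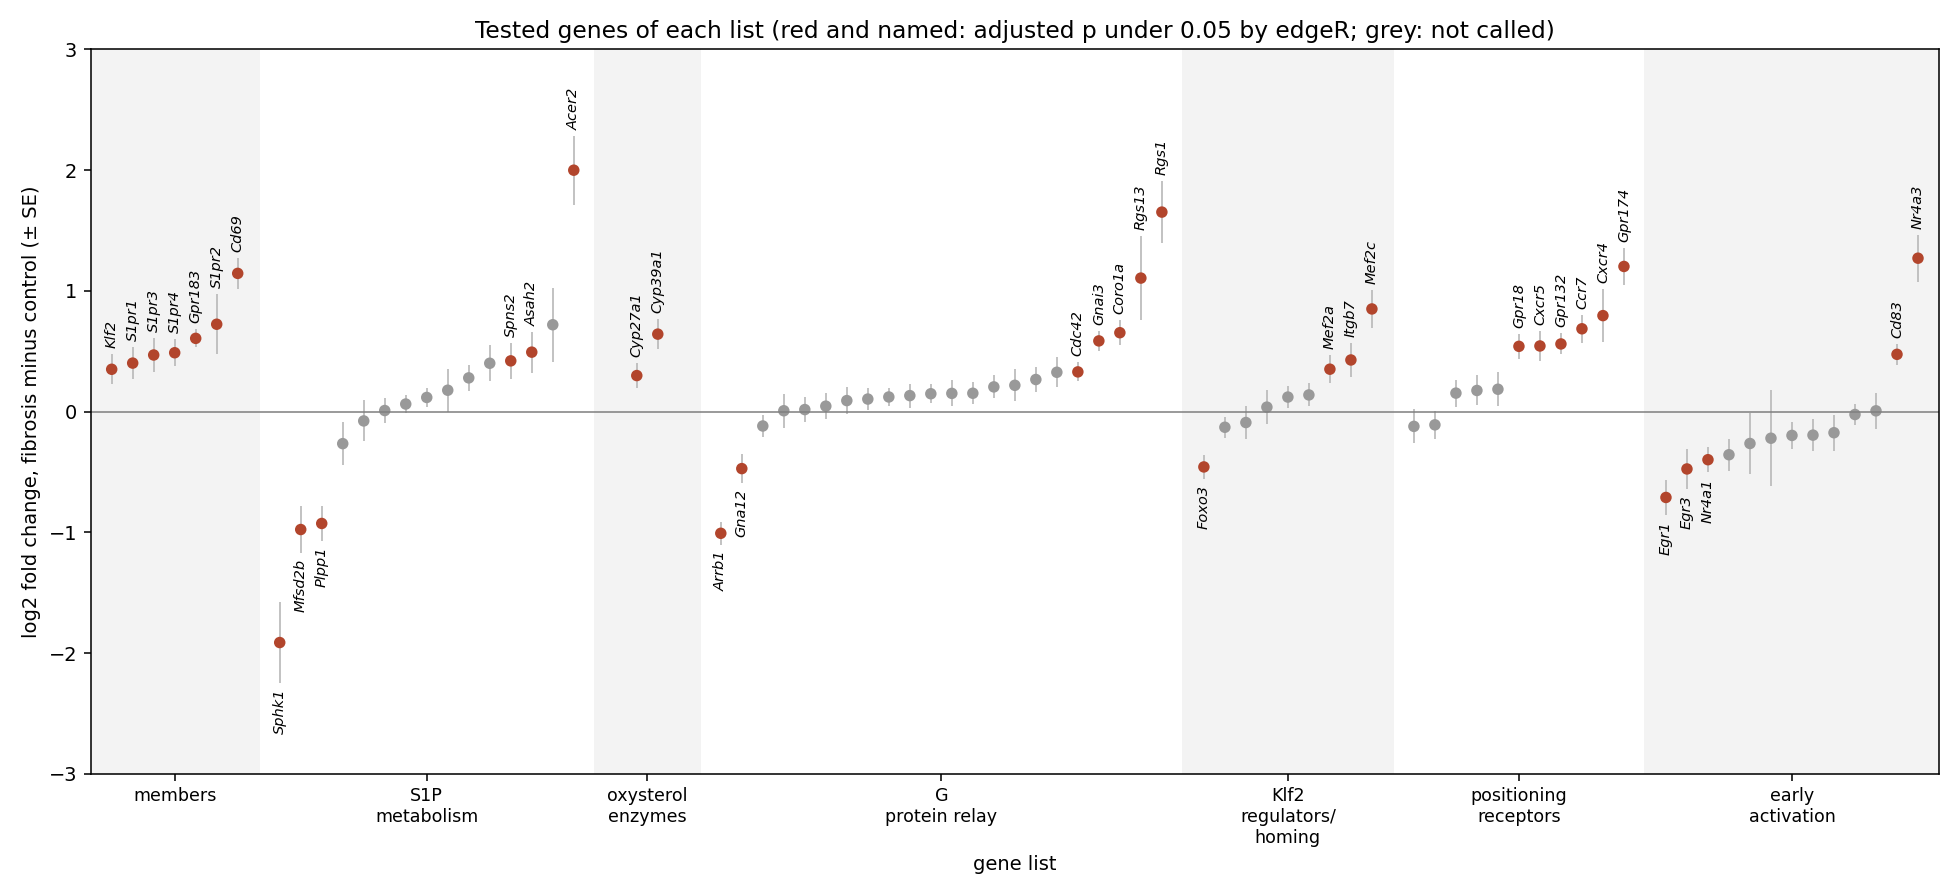
Log2 fold change, fibrosis minus control, with its standard error on the vertical axis for each tested gene of the members and of the 6 pathway lists, red and named where called by edgeR and grey where not. The members all lie above 0, 6 of the 11 positioning receptors are called above it with this scaling, and early activation genes are called on both sides (2 higher, 3 lower of 13).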

How the data were processed

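Bulk RNA-seq libraries of splenic B cells (5 fibrosis, 5 control) were analysed from the table the authors deposited, which holds raw counts and FPKM (a level scaled for gene length and depth) for 54532 genes. Per the submitters' processing notes the genome build was GRCm38 (mm10); no source used here names the aligner or counter or states whether counting used strand. Gene lengths and positions are those the deposited table lists, and transcript lengths and exons are from GENCODE vM21. Overlaps were taken from the listed positions as whole gene spans, introns included.

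Counts were tested with edgeR 4.0.16 in R 4.3.3 (filterByExpr, TMM scaling, robust quasi-likelihood fit, Benjamini-Hochberg over the 14283 genes that passed, threshold 0.05); CPM values are after TMM scaling. The biological coefficient of variation was 0.183. Ratios of FPKM within a library were compared by exact two-sided permutation over 252 assignments in scipy 1.17.1, with adjustment over 4 ratios. The code was tested on simulated data. No 2 libraries of a group agreed within sampling noise (lowest chi-square per degree of freedom 5.88).

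The members, the 6 pathway lists and the 13 marker lists were chosen with earlier results of these data known. Named genes were the members, S1pr5, up to 4 tested genes of each pathway list with the smallest p, and for each member the 2 protein-coding genes with the highest within-group r; marker genes named beside them were chosen after their values were seen. Alternatives changed the scaling (RLE, library size only, B cell marker counts), the low-count filter, the tool (DESeq2 1.42.0, limma 3.58.1 with voom weights, limma on log2 of FPKM plus 1 or 0.1), a replicate block, an erythroid marker covariate (mean log2 CPM of the list) and the libraries used; the counts of lists under B cell marker scaling and the alternatives for named list genes were added after seeing the data. The depth of 13439100 to 17954551 counts per library gave the member with the fewest counts, S1pr2, 1555 counts over fibrosis and 1075 over control libraries. Some list genes are not reported here.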

Additional observations from a re-analysis of the deposited data

Results flagged for a closer look

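Of 68 groups of 5 libraries tested over 34 genes and ratios, 3 held a library whose gap to its nearest neighbour took up more of the group's whole log2 range than Dixon's 95% critical value of 0.71; chance alone gives about 5% of groups, so 3 is about the number chance gives. All 3 were in the control group. S1pr1 was at 201 CPM in control library 3, against 151 to 160.0 CPM in the other control libraries (gap 0.797 of the range). Mef2c was also highest in control library 3, at 173 CPM against 121 to 130.0 CPM in the others (0.793). Klf2 was at 597 CPM in control library 4, against 503 to 524 CPM in the others (0.766).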

How the results depend on the processing

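Over 22 alternatives for each member, none reversed a member's direction. Cd69 and Gpr183 were called higher in all 22, and S1pr4 in all but the fit with the erythroid covariate. Leaving out each library in turn gave 4135 to 5496 genes called, against 5105 with all libraries, and log2 fold changes of 0.34 to 0.49 for S1pr1, 0.60 to 0.97 for S1pr2, 0.38 to 0.56 for S1pr3, 0.40 to 0.56 for S1pr4 and 0.27 to 0.43 for Klf2; the libraries whose absence ended a call are given beside each gene. Log2 fold changes that no longer passed the threshold were as follows. With library size only: S1pr1 0.30, S1pr2 0.62, S1pr3 0.36 and Klf2 0.24. Scaled to B cell marker counts: S1pr1 0.16, S1pr2 0.45, S1pr3 0.22 and Klf2 0.11. With limma on log2(FPKM + 1), a scale that understates low genes: S1pr1 0.36, S1pr2 0.46, S1pr3 0.38 and Klf2 0.31. With a pseudocount of 0.1: S1pr1 0.37, S1pr2 0.69 and Klf2 0.31. With the erythroid covariate, under which 2297 genes were called: S1pr1 0.062, S1pr2 0.014, S1pr3 0.021, S1pr4 0.31 and Klf2 0.20. Klf2 alone was lost with RLE scaling (0.34) and with no low-count filter (0.30). The cause was not tested. Relative to TMM, library size only moved the median of all genes by −0.107 and B cell marker scaling by −0.216, and genes called split into 1777 higher and 3306 lower with library size only and 733 higher and 3445 lower with B cell marker scaling, against 2654 higher and 2451 lower with TMM.

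Libraries of the 2 groups share the numbers 1 to 5, but deviations from the group means of same-numbered libraries had r of −0.228 to 0.393, over 0.1 in 3 of 5 pairs, so the numbers were not taken as pairing. With the replicate block, 5211 genes were called and Klf2 was 0.33 (adjusted p = 0.0601, of a range of 0.00114 to 0.498); the other members kept their calls.

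The Cd69 to S1pr1 ratio difference was 0.55 without fibrosis libraries 4 and 5 and 0.68 to 0.87 without any 1 library. In both cases the exact test over 4 ratios can no longer pass. The S1pr3 to S1pr1 difference was −0.00049 without fibrosis libraries 4 and 5 and −0.00033 to 0.16 without any 1 library, and the Klf2 to S1pr1 difference was −0.14 to 0.010, so neither has a settled direction. Genes called in the signal relay list numbered 14 without fibrosis libraries 4 and 5, against 7; of the Klf2 list, 2 genes were called with library size only, against 4, and of the oxysterol list 1 was called in either setting, against 2. S1pr5 also passed with library size only, no filter, DESeq2 and voom weights. Of 22 named list genes, 19 kept their call without any 1 library, 14 lost it with the erythroid covariate and 7 with B cell marker scaling, and 0 reversed. Depth limits the oxysterol enzymes, of which 4 of 6 were too low to test.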

Other observations

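Further cell type markers were measured in the same libraries. Macrophage and monocyte markers (11 tested, none called) summed to 1650 to 5466 CPM in fibrosis and 3115 to 5025 CPM in control libraries, and the fibrosis libraries spanned the wider range. Without fibrosis libraries 4 and 5, 9 of the 11 were called lower, against 18.8% of all genes. Their sums were 1650 to 3056 CPM in the 3 fibrosis libraries that remained. Neutrophil markers (8 tested, none called) summed to 371 to 4103 CPM in fibrosis and 616 to 1418 CPM in control libraries. Plasma cell markers (6 tested, none called) summed to 429 to 655 CPM in fibrosis and 473 to 639 CPM in control libraries. All 7 tested platelet and megakaryocyte markers rose, against 18.6% of all genes called higher. Their sums were 323 to 1326 CPM in fibrosis and 193 to 241 CPM in control libraries.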
